A study of Homo sapiens with 36 samples.

Results

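The 51 genes described here encode the core machinery that copies chromosomal DNA. They were taken as a list of named genes (51 of the 60642 genes in the K562 degron table), chosen with earlier results of these data known. RNA was measured in 36 libraries of 2 human leukemia lines, K562, an erythroid-like line from chronic myeloid leukemia, and HEL, an erythroleukemia line. The series asked which transcripts depend on LMO2, an adaptor that does not itself bind DNA, on its bridging partner LDB1 and on TAL1, which binds DNA in the same complexes. In the degron set, 24 K562 libraries came from 4 lines: parental cells, an LMO2 control line, and the LMO2 degron as rep 1 and as rep 2, here called degron line 1 and degron line 2. Every line was sampled on day 0 with no dTAGv1 and on days 1 and 4 with dTAGv1, labelled 750 uM (a unit that could not be checked), and each line and day gave 2 libraries, bio rep 1 and bio rep 2. The molecule dTAGv1 joins a tagged protein to a ubiquitin ligase, so that the protein is broken down; all 4 lines received it, and what the LMO2 control line carries, and whether a degron line is 1 clone, are not given in the sources used here. In the HEL set, 3 libraries received a non-targeting siRNA pool and 3 received each of 2 TAL1 siRNA pools by electroporation. In the LDB1 set, K562 received a control shRNA or 1 of 2 LDB1 shRNAs, with 1 library each.

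Chromosomes are copied in S phase from origins that are prepared beforehand, when the origin recognition complex, CDC6 and CDT1 load rings of MCM proteins onto DNA, a step called licensing. At the start of S phase, CDC45 and the GINS complex turn the MCM rings into moving helicases, and primase, DNA polymerases, the sliding clamp PCNA and its loader RFC, and enzymes that join the lagging strand then build the copy. Most of these genes are known targets of E2F transcription factors, which are released from RB proteins as cells pass from G1 into S phase, and their RNA is higher in dividing than in resting cells.

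The stretches upstream of 8 members are shown because the E2F motif is the sequence feature that these promoters are best known for. They include members that fell strongly with and without an exact match to the strings searched. All are the 160 bases before the RefSeq gene start (GRCh38.p14), 5′ to 3′ on the gene's strand, in lower case with E2F motif matches in capitals. CDT1 and E2F1, MCM6 and MCM7, GINS2 and PCNA have an exact match in this stretch, and CDC45 and POLD2 have none. The CDC45 stretch does hold tttggcgg, which differs from the searched TTTGGCGC only in its last letter and was not counted.
CDT1: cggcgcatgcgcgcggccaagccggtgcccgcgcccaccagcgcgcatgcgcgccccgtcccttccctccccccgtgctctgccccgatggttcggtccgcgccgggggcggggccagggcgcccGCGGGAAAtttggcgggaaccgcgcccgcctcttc
E2F1: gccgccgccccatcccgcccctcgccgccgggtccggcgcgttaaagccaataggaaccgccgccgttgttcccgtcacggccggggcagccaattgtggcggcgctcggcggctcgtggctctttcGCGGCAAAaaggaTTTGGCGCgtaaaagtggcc
MCM6: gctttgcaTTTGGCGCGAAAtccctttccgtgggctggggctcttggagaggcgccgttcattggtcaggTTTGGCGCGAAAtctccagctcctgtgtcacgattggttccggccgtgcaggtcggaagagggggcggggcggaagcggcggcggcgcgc
MCM7: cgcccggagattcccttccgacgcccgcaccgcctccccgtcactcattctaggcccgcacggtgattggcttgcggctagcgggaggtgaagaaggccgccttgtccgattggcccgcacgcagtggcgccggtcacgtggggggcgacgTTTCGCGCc
GINS2: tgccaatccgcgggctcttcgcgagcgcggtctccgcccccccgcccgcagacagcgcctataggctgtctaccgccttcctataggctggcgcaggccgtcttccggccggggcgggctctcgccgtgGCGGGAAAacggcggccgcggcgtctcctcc
PCNA: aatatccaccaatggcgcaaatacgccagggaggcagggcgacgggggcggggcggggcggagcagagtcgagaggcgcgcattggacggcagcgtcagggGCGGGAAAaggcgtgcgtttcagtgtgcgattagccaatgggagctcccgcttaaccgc
CDC45: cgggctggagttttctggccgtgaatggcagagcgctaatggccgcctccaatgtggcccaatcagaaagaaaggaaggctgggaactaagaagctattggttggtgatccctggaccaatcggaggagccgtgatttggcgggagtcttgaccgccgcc
POLD2: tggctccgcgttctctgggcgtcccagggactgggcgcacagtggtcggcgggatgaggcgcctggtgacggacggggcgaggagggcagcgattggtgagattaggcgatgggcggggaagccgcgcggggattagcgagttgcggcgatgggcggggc
The windows lie at chr16:88803629-88803788 (plus strand) for CDT1, chr20:33686386-33686545 (minus strand) for E2F1, chr2:135876444-135876603 (minus strand) for MCM6, chr7:100101398-100101557 (minus strand) for MCM7, chr16:85688955-85689114 (minus strand) for GINS2, chr20:5126623-5126782 (minus strand) for PCNA, chr22:19479760-19479919 (plus strand) for CDC45 and chr7:44123549-44123708 (minus strand) for POLD2. They are promoter sequence directly before each gene's start.

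Across the members, 44 of 51 had a promoter entry (250 bases before to 50 after the start); MCM4, MCM5, GINS4, POLD3, RPA2, RPA3 and CCNE2 had none. The E2F motif was searched as TTTCCCGC, TTTGGCGC, TTTGCCGC and TTTCGCGC on both strands, with overlapping matches counted separately. It stood in 21 of 44 member promoters (47.7%), against 3.33% of all 27305 promoters and 4.44% of the 15843 of protein-coding genes. The member promoters were richer in G and C (median 66.3%, against 62.7% for protein-coding genes), and the motif itself is rich in these bases. The CCAAT box bound by NF-Y (CCAAT, both strands) stood in 56.8% of the member promoters, 35.7% of all promoters and 36.4% of those of protein-coding genes. Matches that overlapped between motifs were counted for each. Further motifs are given in the same order, each on both strands. The GATA motif (AGATAA) stood in 0 of 44, 10.5% and 7.57%. E-boxes of the kind that TAL1 complexes bind (CAGATG or CAGCTG) stood in 22.7%, 29.7% and 27%. The MYC-type E-box (CACGTG) stood in 11.4%, 7.43% and 8.88%, and the CHR motif (TTTGAA) in 2.27%, 15.4% and 12.1%. On day 4 in the degron lines, described below, the 21 members with an E2F match had a median change of -0.90 on the log2 scale. The 23 without an exact match had a median of -0.87. They include CDC45 with its uncounted tttggcgg, so this is not a split into promoters with and without E2F sites. Changes ran from -1.44 to -0.46 with a match and from -1.38 to -0.12 without one. The medians were alike, while the smallest falls among these 44 were in members without a match. The part of the motif was not tested. A match is a run of letters in this window and says nothing on whether a factor binds there.

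The labelled identities were checked on the targeted genes. LMO2 RNA stood at 31.2 to 46.6 FPKM in the 6 parental libraries, 212 to 443 FPKM in the 6 LMO2 control libraries and 128 to 271 FPKM in the 12 degron libraries. A degron acts on protein, so LMO2 RNA does not test protein loss. TAL1 stood at 432, 470 and 490 CPM with the non-targeting pool, 162, 190 and 182 with pool 1 and 177, 193 and 200 with pool 2. LDB1 stood at 468 TPM with the control shRNA and at 62.4 and 69.6 TPM with the 2 LDB1 shRNAs. Libraries held 17196756 to 26321637 reads in the degron set and 15869619 to 27029836 counts in HEL, and the depth of the LDB1 set is unknown. Members were well covered, with at least 87 reads (POLA2), likewise inferred, in each degron-set library and at least 169 counts (CCNE2) in each HEL library. Over all genes, the 3 HEL libraries of bio rep 1 stood apart from the other 6 on the first principal component (32% of the variance), with scores of 15.8 to 29.9 against -22.4 to -0.6. In the degron set the second component (12.3%) separated all libraries of bio rep 1 from those of bio rep 2. Counts and calls that change with the number as a block in the degron set, or without bio rep 1 in HEL, are given with the results.

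In untreated parental cells the members spanned a wide range of FPKM, which between genes also depend on the gene lengths used. PCNA, the sliding clamp, was highest at 255 ± 75.2 FPKM (SD, n = 2), followed by MCM7 at 168 ± 30.9 and CDC45 at 157 ± 32. At the other end, POLA2, a subunit of the primase complex, stood at 2.81 ± 0.6 FPKM and CCNE2, cyclin E2, at 2.49 ± 1.09. The neighbours MCM7 and CDC45, and likewise POLA2 and CCNE2, differed by less than their SD, whereas PCNA lay above MCM7 by more than the SD of either.

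On day 4 the replication genes fell as a body in the degron lines. The parental and LMO2 control lines are together called the control lines, and their mean change from day 0 was subtracted from that of the 2 degron lines, on the log2(FPKM + 1) scale, to give the degron-specific change. It was negative for all 51 members, from -1.44 (MCM7) to -0.12 (RPA1), with a median of -0.88 against 0.06 over all 15348 genes tested. In limma, 39 of 51 members fell at an adjusted p under 0.05 and 0 rose, where 8.18% of all genes were called lower and 11.6% higher, 19.8% in all, and 12.8% of genes with a mean of at least 5 FPKM were called lower. The 4 degron libraries of day 4 lay below all 4 control-line libraries of day 4 for 42 of 51 members (20.2% of all genes) and below the 4 degron libraries of day 0 for 38 (14.1%) and below all other 20 libraries for 16 (4.83%). With the bio rep number as a block, 45 members were called lower, as were 15.6% of all genes, and the added ones were GINS3, POLA1, POLD3, RRM2, DTYMK and UHRF1. In bulk RNA, fewer cells in S phase and less of these RNAs per cell cannot be told apart.

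**Figure D1:**
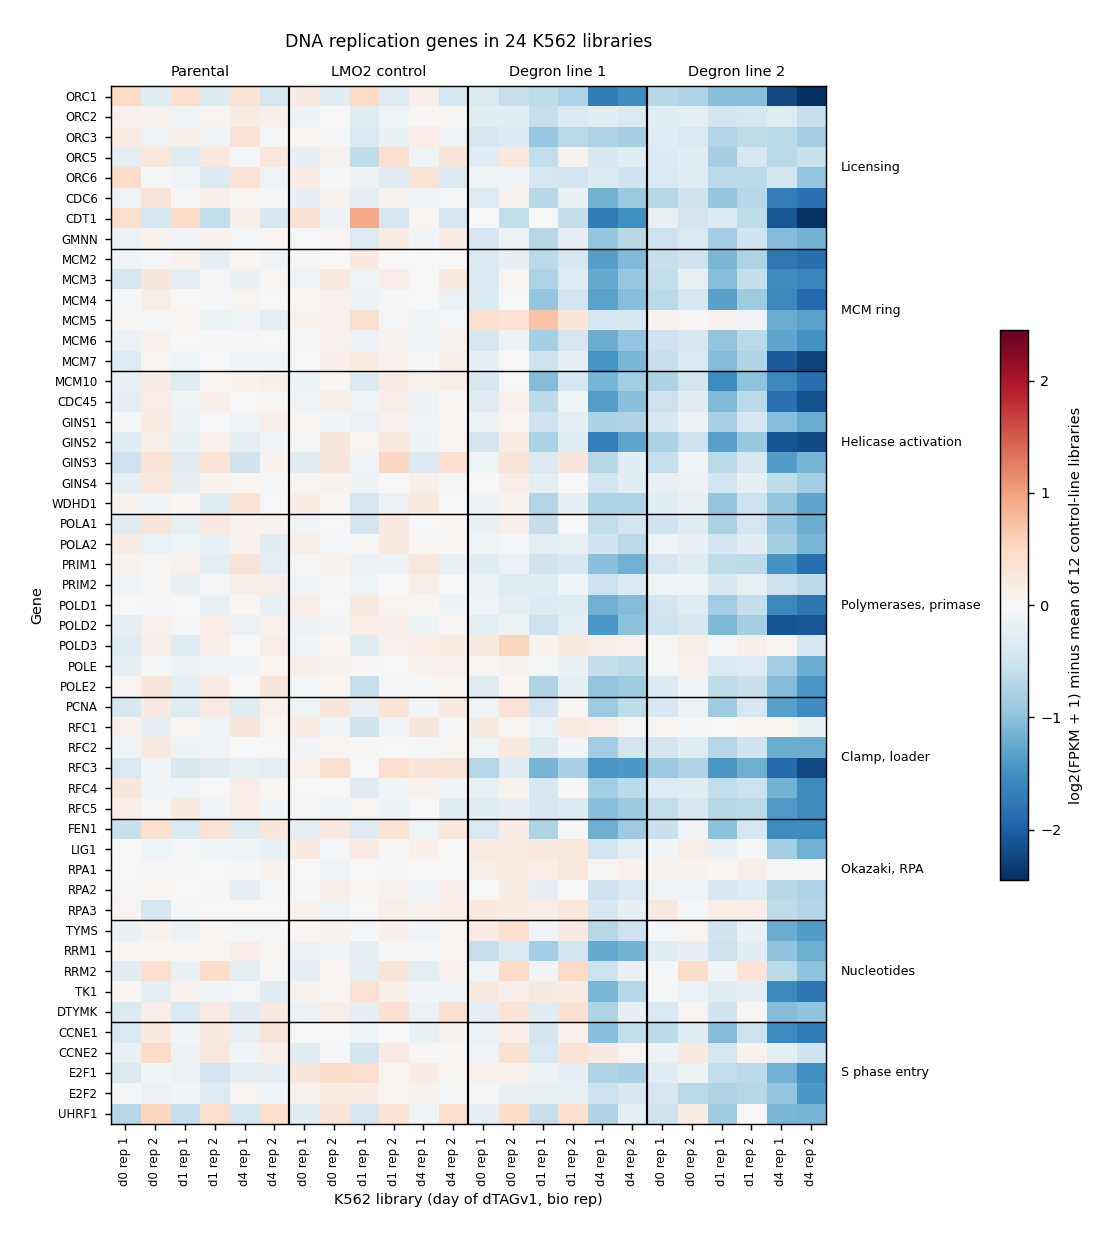
Level of each of the 51 replication genes (rows, by role) in the 24 K562 libraries (columns, by line, day and bio rep), as log2(FPKM + 1) minus the mean of the 12 control-line libraries. Blue is lower and red higher; the 4 degron libraries of day 4 are blue in nearly every row, while RPA1, at 28.2 to 31.7 FPKM in the control lines and 29.3 to 31.9 FPKM in the degron lines on day 4, stays pale.

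Licensing genes fell in part, with 5 of 8 called. Values of the degron lines are given here and below as bio rep 1 and 2 of degron line 1, then of degron line 2, and changes are given on the log2 scale with their SE. ORC1 stood at 29.9 to 57.7 FPKM (median 39.2) in the 12 control-line libraries. In the degron lines it stood at 31.7, 27.4, 25.2 and 23.8 FPKM on day 0, 26.3, 23.7, 19.6 and 19.6 on day 1 and 11.8, 13.3, 8.05 and 6.64 on day 4. ORC1 encodes the largest subunit of the origin recognition complex. Its 4 day 4 values lay below every other library, and the change was -1.26 ± 0.33 (adjusted p = 0.0147). CDC6 stood at 11.5 to 17.1 FPKM (median 13.6) in the 12 control-line libraries. Degron-line values were 10.8, 14.5, 8.03 and 9.29 FPKM on day 0, 8.13, 11.9, 6.49 and 7.96 on day 1 and 5.58, 6.78, 3.48 and 3.12 on day 4. CDC6, which loads the MCM ring together with CDT1, changed by -1.0 ± 0.19 (adjusted p = 0.00248), and its day 4 values lay below all degron-line values of day 0. CDT1 had the largest change in the group, -1.39 ± 0.44 (adjusted p = 0.037), with a wide error, and the control-line libraries themselves ran from 59.8 to 175 FPKM. GMNN, geminin, which blocks CDT1 after licensing, changed by -0.65 ± 0.20 (adjusted p = 0.0293), and ORC3 by -0.46 ± 0.15 (adjusted p = 0.0443). The remaining origin recognition subunits did not pass the test: ORC2 stood at -0.20 ± 0.11 (adjusted p = 0.226), ORC5 at -0.44 ± 0.32 (adjusted p = 0.369) and ORC6 at -0.26 ± 0.22 (adjusted p = 0.442).

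All 6 genes of the MCM ring fell, by -1.44 to -0.87 with SEs of 0.15 to 0.25. MCM3 had the largest SE, and its 2 untreated parental libraries stood at 86.7 and 139 FPKM. MCM7 stood at 146 to 208 FPKM (median 182) in the 12 control-line libraries. Without dTAGv1 the degron lines had 153, 181, 122 and 140 FPKM, and with it 128, 154, 86.8 and 109 FPKM on day 1 and 66.3, 82.8, 43.3 and 36.7 on day 4. MCM7 showed the largest change of all 51 members, -1.44 ± 0.16 (adjusted p = 5.08e-05), a 2.71-fold fall on the log2(FPKM + 1) scale, and its 4 day 4 values lay below every other library. MCM2 stood at 41 to 55.9 FPKM (median 47.5) in the 12 control-line libraries, and in the degron lines at 36.9, 41.3, 31.8 and 33.2 FPKM on day 0, 29.7, 35.7, 21.2 and 27.5 on day 1 and 17.9, 21.9, 13.4 and 12.4 on day 4. MCM2 changed by -1.12 ± 0.15 (adjusted p = 0.000148), and its 4 degron-line values of day 0 already lay below the 4 control-line values of day 0. The other 4 changes were -1.09 ± 0.25 (adjusted p = 0.00662) for MCM3, -1.0 ± 0.18 (adjusted p = 0.00159) for MCM4, -0.88 ± 0.15 (adjusted p = 0.000789) for MCM5 and -0.87 ± 0.17 (adjusted p = 0.00222) for MCM6. The ring holds its subunits in equal number, while their FPKM were unequal in every library: the highest subunit stood 3.01 to 5.76 times above the lowest. Such ratios between genes depend on the gene lengths behind the FPKM, recovered as 7268 bases for MCM5, 4715 for MCM2 and 4386 for MCM7. MCM7 was highest in 23 of the 24 libraries and MCM3 in degron line 2, day 4, bio rep 2. By FPKM, MCM5 was lowest in all 12 control-line libraries and MCM2 in all 12 degron-line libraries.

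**Figure D2:**
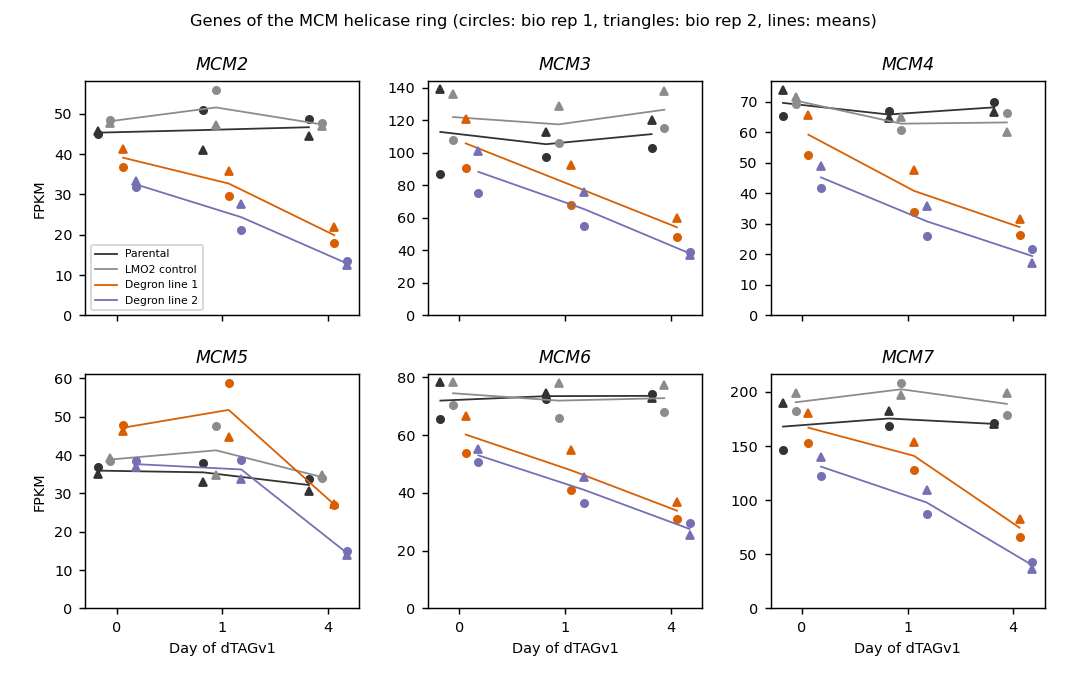
FPKM (from 0) of the 6 MCM ring genes by day of dTAGv1 for each K562 line, with a circle for bio rep 1, a triangle for bio rep 2 and a line through the mean. The degron lines drop to day 4 in every panel, MCM7 from 122 to 181 FPKM on day 0 to 36.7 to 82.8 FPKM, while the control lines stay between 146 and 208 FPKM for MCM7.

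Of the 7 genes that activate the helicase, 6 fell. CDC45 stood at 135 to 180 FPKM (median 161) in the 12 control-line libraries. In the degron lines it stood at 132, 172, 111 and 133 FPKM on day 0, 102, 148, 75.2 and 100 on day 1 and 62.3, 78.2, 44.2 and 35.7 on day 4. CDC45, which joins the MCM ring to form the active helicase, changed by -1.33 ± 0.22 (adjusted p = 0.000713). GINS2 stood at 22.6 to 33.5 FPKM (median 27.5) in the 12 control-line libraries. Degron-line values were 19.8, 31.7, 15.6 and 18.8 FPKM on day 0, 15.8, 23, 10.4 and 14.1 on day 1 and 7.94, 10.7, 5.58 and 5.27 on day 4. GINS2, a subunit of the GINS complex, changed by -1.31 ± 0.24 (adjusted p = 0.00154), and for both genes the day 4 values lay below all degron values of day 0. MCM10, which helps to open the ring, changed by -1.10 ± 0.25 (adjusted p = 0.00624). WDHD1, which ties the helicase to polymerase alpha, changed by -0.89 ± 0.19 (adjusted p = 0.00504), GINS1 by -0.75 ± 0.16 (adjusted p = 0.00425) and GINS4 by -0.50 ± 0.17 (adjusted p = 0.0466). GINS3 stood at -0.72 ± 0.36 (adjusted p = 0.185), with adjusted p = 0.000915 under the block.

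Among polymerases and primase, 7 of 9 fell, and 2 subunits of polymerase delta had the smallest p. POLD2 stood at 64.9 to 84.2 FPKM (median 75) in the 12 control-line libraries. Without dTAGv1 the degron lines had 63.1, 68.6, 52.3 and 57.1 FPKM, and with it 51.6, 63.8, 34.5 and 42 FPKM on day 1 and 27.5, 37, 16.5 and 16.8 on day 4. POLD2, an accessory subunit of polymerase delta, changed by -1.38 ± 0.16 (adjusted p = 5.2e-05). POLD1 stood at 57.1 to 75 FPKM (median 64.3) in the 12 control-line libraries, and in the degron lines at 60.9, 55.2, 46.6 and 52.2 FPKM on day 0, 51.1, 52.5, 35.5 and 42.8 on day 1 and 28, 30.6, 20.9 and 18.2 on day 4. POLD1, the catalytic subunit, changed by -1.04 ± 0.13 (adjusted p = 8.78e-05), and its day 4 values lay below every other library. POLD3, a further subunit of the same enzyme, stood at -0.44 ± 0.19 (adjusted p = 0.118, and adjusted p = 0.0465 under the block), with day 4 values of 7.09, 6.93, 6.62 and 4.57 FPKM that overlapped those of the control lines. The catalytic subunit of the leading-strand polymerase, POLE, changed by -0.92 ± 0.12 (adjusted p = 0.000104) and its partner POLE2 by -0.90 ± 0.22 (adjusted p = 0.0086). The primase subunits PRIM1 and PRIM2 changed by -1.08 ± 0.18 (adjusted p = 0.000907) and -0.50 ± 0.12 (adjusted p = 0.00822). POLA2 changed by -0.62 ± 0.15 (adjusted p = 0.0114), and POLA1, the catalytic subunit of polymerase alpha, stood at -0.67 ± 0.24 (adjusted p = 0.0702, and adjusted p = 0.0112 under the block).

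Of the clamp and its loader, 5 of 6 genes fell. RFC3 stood at 25 to 44.6 FPKM (median 32.3) in the 12 control-line libraries. In the degron lines it stood at 20.2, 27.5, 17.3 and 19.6 FPKM on day 0, 14.6, 18.7, 11.8 and 13.9 on day 1 and 11.7, 11.9, 8.23 and 6.4 on day 4. RFC3 changed by -1.13 ± 0.18 (adjusted p = 0.000691). RFC5 stood at 15.9 to 22.8 FPKM (median 18.9) in the 12 control-line libraries. Degron-line values were 15.9, 16.6, 12.3 and 14.2 FPKM on day 0, 14.5, 15.1, 11.7 and 11.8 on day 1 and 8.83, 9.74, 6.73 and 5.95 on day 4. RFC5 changed by -0.80 ± 0.13 (adjusted p = 0.000825), and its day 4 values lay below every other library, whereas for RFC3 the lowest day 1 value (11.8 FPKM) touched the range of day 4. Both are small subunits of the complex that opens PCNA and sets it on DNA. PCNA itself changed by -1.01 ± 0.28 (adjusted p = 0.02), RFC2 by -0.76 ± 0.16 (adjusted p = 0.0033) and RFC4 by -0.87 ± 0.16 (adjusted p = 0.00196). RFC1, the large subunit, stood at -0.19 ± 0.18 (adjusted p = 0.507), and its day 4 values of 19.1, 17.3, 18 and 15.2 FPKM lay within the control-line range of 11.8 to 21.1 FPKM.

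Of the genes for lagging-strand joining and single-strand cover, 4 of 5 fell. LIG1 stood at 18.4 to 24.6 FPKM (median 20.4) in the 12 control-line libraries. Without dTAGv1 the degron lines had 24.1, 24.2, 19.9 and 23.2 FPKM, and with it 24.8, 25.3, 18.4 and 20.2 FPKM on day 1 and 14.7, 17.5, 11.2 and 8.69 on day 4. LIG1, the ligase that seals Okazaki fragments, changed by -0.76 ± 0.13 (adjusted p = 0.00105), and its day 4 values lay below every other library. RPA3 stood at 9.62 to 15 FPKM (median 13.5) in the 12 control-line libraries, and in the degron lines at 15.9, 15.4, 15.8 and 12.9 FPKM on day 0, 15, 16.1, 15 and 15 on day 1 and 9.95, 11.5, 8.34 and 7.71 on day 4. RPA3, the smallest subunit of the protein that covers single-stranded DNA, changed by -0.81 ± 0.14 (adjusted p = 0.00117). FEN1, the nuclease that trims Okazaki fragments, changed by -1.16 ± 0.38 (adjusted p = 0.0437) and RPA2 by -0.51 ± 0.12 (adjusted p = 0.00613). RPA1, the largest RPA subunit, stood at -0.12 ± 0.09 (adjusted p = 0.377), with day 4 values of 30.4, 31.9, 29.3 and 30.4 FPKM against 28.2 to 31.7 FPKM in the control lines.

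Nucleotide supply genes fell for 3 of 5. TK1 stood at 103 to 160 FPKM (median 126) in the 12 control-line libraries. In the degron lines it stood at 146, 136, 121 and 114 FPKM on day 0, 147, 144, 104 and 109 on day 1 and 57.4, 77.2, 41.2 and 35.8 on day 4. TK1, thymidine kinase of the salvage path, changed by -1.22 ± 0.14 (adjusted p = 6.11e-05). TYMS stood at 63 to 77.1 FPKM (median 71.3) in the 12 control-line libraries. Degron-line values were 81.2, 93.6, 68.1 and 73.8 FPKM on day 0, 66.3, 82.3, 50.3 and 63.1 on day 1 and 42.9, 49.3, 29.7 and 26.7 on day 4. TYMS, thymidylate synthase, changed by -1.07 ± 0.15 (adjusted p = 0.00019), and for both genes the day 4 values lay below every other library. RRM1, the large subunit of ribonucleotide reductase, changed by -0.88 ± 0.14 (adjusted p = 0.000503). Its small subunit RRM2 stood at -0.72 ± 0.31 (adjusted p = 0.112) and DTYMK, thymidylate kinase, at -0.80 ± 0.32 (adjusted p = 0.0998); both passed under the block, with adjusted p = 0.00483 and adjusted p = 0.000105.

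Regulators of S phase entry fell for 3 of 5. E2F1 stood at 15.7 to 30.6 FPKM (median 22.1) in the 12 control-line libraries. Without dTAGv1 the degron lines had 23.9, 23.7, 17.8 and 20.3 FPKM, and with it 20.1, 19.1, 14.2 and 13.9 FPKM on day 1 and 12.6, 12.4, 9.27 and 7.17 on day 4. E2F1, an activating E2F factor, changed by -0.88 ± 0.15 (adjusted p = 0.000924), and its day 4 values lay below every other library. CCNE1 stood at 9.77 to 16.3 FPKM (median 13) in the 12 control-line libraries, and in the degron lines at 11.6, 14.6, 7.94 and 10.6 FPKM on day 0, 9.26, 13.9, 5.66 and 8.66 on day 1 and 5.88, 8.11, 3.73 and 3.22 on day 4. CCNE1, cyclin E1, the partner of CDK2 at the start of S phase, changed by -1.04 ± 0.26 (adjusted p = 0.0107). E2F2 changed by -0.49 ± 0.14 (adjusted p = 0.0227). UHRF1, which carries DNA methylation over to the new strand, stood at -0.88 ± 0.50 (adjusted p = 0.243) and passed under the block with adjusted p = 0.00368. Its level was higher in bio rep 2 than in bio rep 1 of each line and day except degron line 2 on day 4 (9.3 and 9.27 FPKM). CCNE2 stood at -0.23 ± 0.29 (adjusted p = 0.622) and was not called under the block.

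**Figure D3:**
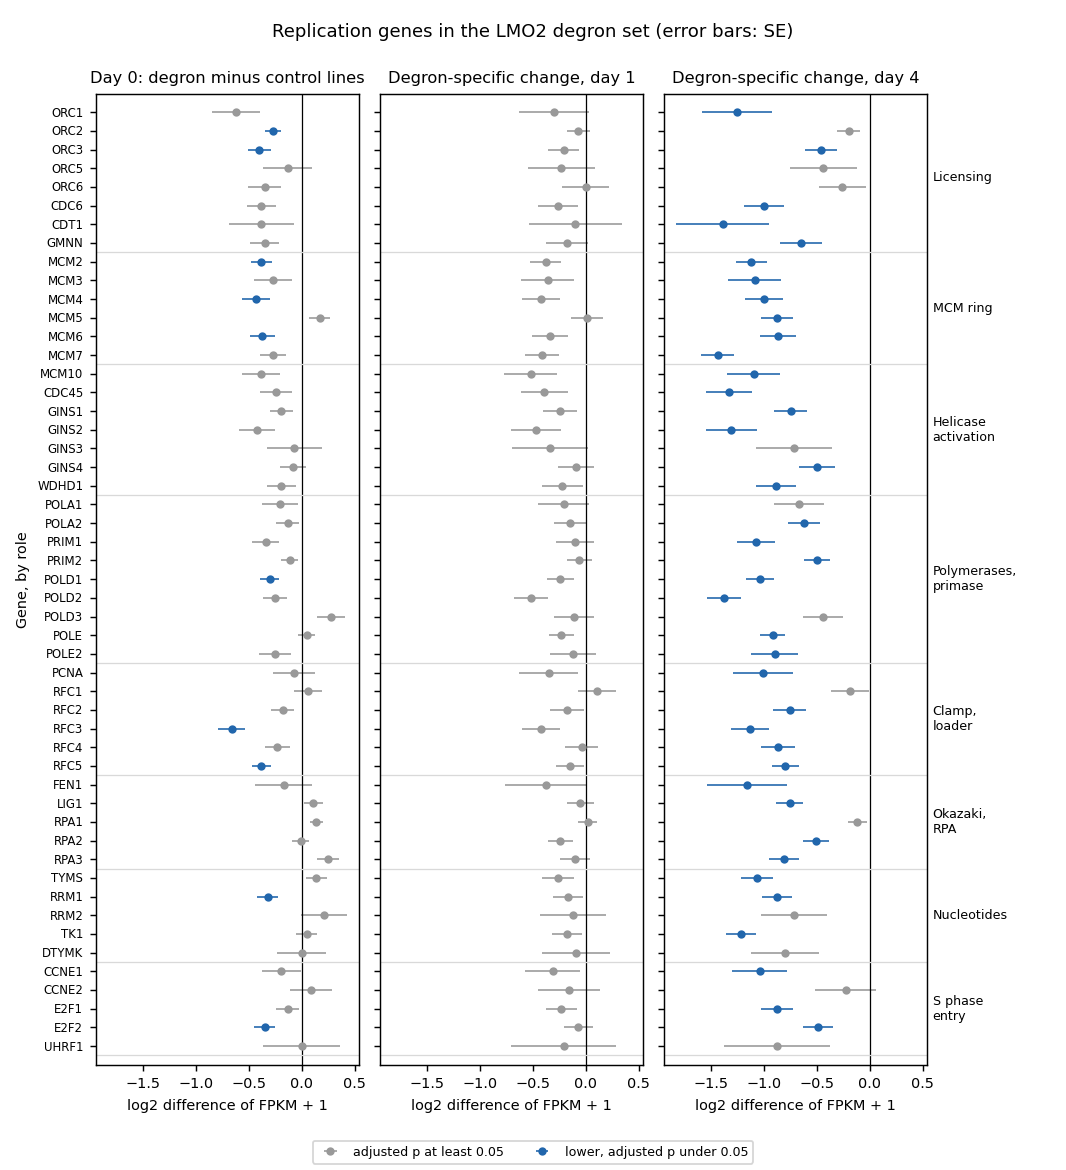
Estimated log2 difference with its SE for each of the 51 genes (rows, by role) in 3 comparisons of the degron set: degron against control lines on day 0, and the degron-specific change on day 1 and on day 4. Blue points passed an adjusted p under 0.05; they number 10 on day 0, 0 on day 1 and 39 on day 4.

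The size of the change followed the level in part. Across the 51 members the day 4 change and the log2 mean FPKM had a Pearson r of -0.59 and a Spearman rho of -0.61, as a description over genes that share the same libraries. The pseudocount of 1 shrinks changes of low genes. With a pseudocount of 0.1 the median change was -0.93 and the number called 39 (8.45% of all genes were called lower).

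Calls that rested on few libraries were concentrated in 7 members. Leaving out 1 library at a time gave 32 to 38 called members, and 32 of the 39 were called in all 16 such fits. The exceptions were ORC3, CDT1, GMNN, GINS4, PCNA, FEN1 and E2F2, called in 3 (GINS4) to 11 (PCNA) of 16. Degron line 1 alone gave 23 called members with a median of -0.70 (3.3% of all genes were called lower), and degron line 2 alone gave 35 with a median of -1.01 (6.37%).

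The 2 degron lines were compared directly for their change from day 0 to day 4. Degron line 2 had the lower estimate for 47 of 51 members, with a median difference of -0.28 against -0.03 over all genes. None of the 51 differences passed in limma (6 at an unadjusted p under 0.05; 0 with edgeR on reads recovered from the FPKM), where 0.013% of all genes were called. For MCM7 the change was -1.17 in degron line 1 and -1.70 in degron line 2, each against the control lines, and for TK1 it was -0.96 and -1.48.

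Day 1 came before most of this change. None of the 51 members passed in the degron-specific change on day 1 in limma, where 0.0782% of all genes were called; 5 had an unadjusted p under 0.05, and edgeR on the recovered reads also called 0. The median was -0.21 against 0.03 over all genes, and 47 of 51 estimates were below 0, from -0.52 ± 0.25 (adjusted p = 0.724) for MCM10 and -0.52 ± 0.16 (adjusted p = 0.314) for POLD2 to 0.11 ± 0.18 (adjusted p = 0.99) for RFC1. Under the block POLD2 alone passed, with adjusted p = 0.0251. Between day 1 and day 4 the degron-specific change was tested directly: 23 members fell (3.26% of all genes were called lower), and under the block 40 fell (8.17%). The median was -0.67, and the members with the smallest p were TK1 at -1.04 ± 0.14 (adjusted p = 0.000901), POLD1 at -0.81 ± 0.13 (adjusted p = 0.00205) and MCM7 at -1.02 ± 0.16 (adjusted p = 0.0021). Without bio rep 2 of degron line 2 on day 4, 15 members were called, and degron line 1 alone gave 2.

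The control lines gave no such change. Under the same dTAGv1 exposure, 0 of 51 members were called in limma between day 0 and day 1 (1 at an unadjusted p under 0.05) or between day 0 and day 4 (0 at an unadjusted p under 0.05), where 0% of all genes were called at either time; edgeR on recovered reads also called 0. Their day 4 estimates ran from -0.23 to 0.18 on the log2 scale.

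Before any dTAGv1, some members already differed between degron and control lines. On day 0, 10 of 51 were lower in the degron lines and 0 higher, where 6.14% of all genes were called lower and 10.6% higher. They were ORC2, ORC3, MCM2, MCM4, MCM6, POLD1, RFC3, RFC5, RRM1 and E2F2. RFC3 differed most, -0.66 ± 0.13 (adjusted p = 0.00249), with 20.2, 27.5, 17.3 and 19.6 FPKM in the degron lines against 25.3 and 31.6 in parental cells and 36.1 and 43.5 in the LMO2 control line. MCM2 differed by -0.38 ± 0.10 (adjusted p = 0.0198), with 36.9, 41.3, 31.8 and 33.2 FPKM against 45 and 45.6 and 48.5 and 47.8, so that the groups did not overlap, whereas for RFC3 the highest degron value (27.5 FPKM) lay above the lowest parental value. Under the block 20 members were lower (12.9% of all genes) and RPA1 was higher (0.14, adjusted p = 0.0442). The count of 10 was sensitive to single libraries: it was 3 without bio rep 1 of the LMO2 control line, of degron line 1 or of degron line 2, 4 without bio rep 2 of the LMO2 control line, 5 without bio rep 2 of degron line 2 and 6 without bio rep 2 of the parental line. It was 4 against the parental line alone (3.9% of all genes called lower), 3 against the LMO2 control line alone (4.54%) and 1 for degron line 1 alone (2.54%).

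Other replication genes followed the same course on day 4. This and the further lists here were also chosen with earlier results of these data known. Of a further 41 genes of origin firing, fork protection and chromatin assembly, 40 were tested, 21 fell and 0 rose, with a median of -0.68. For the day 4 counts of this and the following lists, 8.18% of all genes were called lower and 11.6% higher. The 4 with the smallest p were DTL at -1.11 ± 0.14 (adjusted p = 0.000104), which directs CDT1 to destruction, TICRR at -1.0 ± 0.13 (adjusted p = 0.000154), which helps to load CDC45, CDCA5 at -1.04 ± 0.14 (adjusted p = 0.000157), which holds sister chromatids together, and CCNA2, cyclin A2, at -1.29 ± 0.18 (adjusted p = 0.000202). Of 26 genes that control S phase entry from outside the machinery, 6 fell and 2 rose, with a median of -0.10. The 2 rises were no more frequent than those over all genes. MYC, a driver of growth and division, fell by 2.14 on the log2 scale (SE 0.22, adjusted p = 2.15e-05), from 33.9, 34.5, 34.7 and 30 FPKM on day 0 to 6.81, 7.85, 4.86 and 5.96 FPKM on day 4 in the degron lines, against 48.5 to 73.1 FPKM in the control lines. MYC was the only gene of the entry control, other replication and mitosis lists called on day 1, at -1.32 ± 0.22 (adjusted p = 0.0399), when no member was. MYBL2 changed by -1.43 ± 0.18 (adjusted p = 0.000121) and LIN9 by -0.82 ± 0.18 (adjusted p = 0.00609), and both act on late cell cycle genes. CDKN1A, the CDK inhibitor p21, rose by 1.37 ± 0.35 (adjusted p = 0.0123), and the other riser was RB1, which holds E2F factors back, at 0.46 ± 0.14 (adjusted p = 0.0267) (named after its value was seen). The remaining 3 that fell, also named after their values were seen, were E2F7, E2F8 and TFDP1; E2F7 and E2F8 are repressors of E2F targets. Of 24 mitosis genes, 23 were tested and 18 fell and 0 rose, with a median of -1.01, against -0.88 for the replication genes.

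Markers of cell identity moved in the same libraries. The summed FPKM of 9 erythroid-line markers was 618 to 1200 in the control lines, and in the degron lines 700 to 877 on day 0 and 458 to 564 on day 4. These sums include LMO2 itself, at 31.2 to 443 FPKM in the control lines. In the degron lines LMO2 stood at 132 to 157 FPKM on day 0 and 155 to 271 on day 4. In the degron-specific change on day 4, 3 of the 9 were called lower and 1 higher (8.18% and 11.6% of all genes). The sum of 11 monocyte and granulocyte markers was 18.2 to 53.7 in the control lines, and in the degron lines 55.3 to 76.7 on day 0 and 131 to 169 on day 4. Of the 5 of these markers that could be tested, 3 were already higher in the degron lines on day 0 (10.6% of all genes). In the degron-specific change on day 4, 4 of these 5 were called higher and 0 lower (11.6% and 8.18% of all genes). MPO, ELANE, CSF1R, CEBPA and CEBPE stood under 0.1 FPKM in both degron lines on day 4. The sum of 5 lymphoid markers was 9.2 to 42.8 in the control lines, and in the degron lines 50.5 to 144 on days 0 and 1 and 22.9 to 46.8 on day 4. The part of these changes in that of the replication genes was not tested. Stromal markers summed to at most 3.78 FPKM in any library.

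With TAL1 knockdown in HEL, part of the same genes fell, mainly with pool 1. CPM are given as bio reps 1, 2 and 3, those of the non-targeting pool first. With pool 1, 50 of 51 estimates were below 0 in edgeR, from -0.81 (GINS2) to 0.08 (CCNE2), with a median log2 fold change of -0.40 against -0.02 over all 16688 genes. At an adjusted p under 0.05, 12 members fell and 0 rose, where 1.65% of all genes were called lower and 2.56% higher. The 3 pool 1 libraries lay below all 3 non-targeting libraries in CPM for 30 of 51 members (12.2% of all genes). Pool 1 lay below the control of the same number for 48, 49 and 51 members in bio reps 1, 2 and 3. The 12 were CDT1, MCM2, MCM3, MCM5, MCM6, GINS2, WDHD1, POLD3, RFC1, RFC4, RFC5 and RPA3.

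Within the MCM ring, 4 of 6 fell. MCM3 stood at 550, 558 and 598 CPM with the non-targeting pool and at 440, 400 and 381 CPM with pool 1, with no overlap, a change of -0.48 ± 0.08 (adjusted p = 0.0048). Of the 12, MCM3 alone kept its call whichever of the 6 libraries was left out. MCM5 stood at 273, 284 and 320 and 226, 205 and 189 CPM (-0.50 ± 0.09, adjusted p = 0.00872), and MCM2 at 455, 475 and 524 and 385, 336 and 319 CPM (-0.48 ± 0.09, adjusted p = 0.00896).

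In the other roles 0 to 3 genes were called each. CDT1 stood at 88.9, 126 and 125 CPM in controls and 75.2, 79.2 and 74 CPM with pool 1, a change of -0.57 ± 0.15 (adjusted p = 0.0459). GINS2 went from 49.1, 38.1 and 41.9 to 30.6, 22.5 and 20.3 CPM, the largest change, -0.81 ± 0.16 (adjusted p = 0.012). POLD3, not called in K562 without the block, went from 46.3, 42.8 and 47 to 29.6, 36.5 and 30.5 CPM, -0.49 ± 0.11 (adjusted p = 0.0201). In each of these genes the 2 groups did not overlap. RFC1, not called in K562, went from 136, 136 and 148 to 108, 112 and 105 CPM, -0.36 ± 0.08 (adjusted p = 0.0251). RPA3 went from 19.1, 20.1 and 17.3 to 12.7, 14.7 and 12.7 CPM, -0.49 ± 0.12 (adjusted p = 0.0372), and for both genes the groups did not overlap either. E2F1 and TYMS lay below the controls without overlap and did not pass: E2F1 stood at 80.8, 73.8 and 88.5 and 68.5, 52.1 and 41.8 CPM (-0.58 ± 0.15, adjusted p = 0.0571), and TYMS at 129, 125 and 133 and 111, 95.9 and 92.2 CPM (-0.37 ± 0.10, adjusted p = 0.065). No nucleotide supply gene and no S phase entry gene was called. This did not hold with bio reps 2 and 3 only, where TYMS, RRM1, TK1, DTYMK, CCNE1, E2F1 and E2F2 were called lower, E2F1 at -0.77 ± 0.10 (adjusted p = 2.69e-06) and TYMS at -0.43 ± 0.07 (adjusted p = 2.8e-05).

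The number called with pool 1 depended on single libraries, while the direction did not. It was 24 without pool 1 bio rep 1, 7 without non-targeting bio rep 2, 4 without pool 1 bio rep 2, 2 without non-targeting bio rep 3 and 1 without pool 1 bio rep 3, and the median ranged from -0.52 to -0.33 over these fits. With bio reps 2 and 3 only, leaving out the libraries that stood apart, 42 members fell with a median of -0.45, an alternative chosen after seeing the data in which 7.31% of all genes were called lower. DESeq2 called 23 members and 2.81% of all genes lower.

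With pool 2 the estimates were closer to 0. They were below 0 for 48 of 51 members, with a median of -0.18, and 1 member fell, where 0.563% of all genes were called lower. That member was POLD2, which went from 81.6, 83.7 and 91.9 to 63.8, 62.7 and 60 CPM without overlap, a change of -0.48 ± 0.10 (adjusted p = 0.0461). Its call was lost when any library but pool 2 bio rep 1 was left out of the 6 compared. Non-overlap below the controls held for 11 of 51 members (8.09% of all genes). GINS2 stood at 33.5, 29.7 and 29.1 CPM with pool 2 (-0.50 ± 0.16, adjusted p = 0.202), MCM3 at 472, 515 and 490 CPM (-0.23 ± 0.08, adjusted p = 0.258) and E2F2 at 31.8, 34.6 and 42.2 CPM against 45, 42.8 and 57.8 in controls (-0.45 ± 0.13, adjusted p = 0.157). These 3 groups of values lay below the controls without passing the test. RFC1 stood at 126, 124 and 116 CPM with pool 2 (-0.21 ± 0.08, adjusted p = 0.319), below the controls in each library. ORC3 stood at 46.9, 45.5 and 53.5 CPM in controls and 44.2, 41.9 and 43.3 CPM with pool 2 (-0.19 ± 0.10, adjusted p = 0.472), also without overlap. FEN1 stood at 109, 74.7 and 71.3 and 86.4, 62.8 and 58.7 CPM (-0.31 ± 0.28, adjusted p = 0.746), and RRM2 at 417, 346 and 376 and 357, 313 and 307 CPM (-0.24 ± 0.10, adjusted p = 0.37). In these last 2 genes the groups overlapped. With bio reps 2 and 3 only, 18 members fell and 5.03% of all genes were called lower. In that fit GINS2 (adjusted p = 0.00443), MCM3 (0.016), E2F2 (0.0276), RFC1 (0.0188), FEN1 (0.0427) and RRM2 (0.0094) passed by their adjusted p, and ORC3 did not (0.138).

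**Figure D4:**
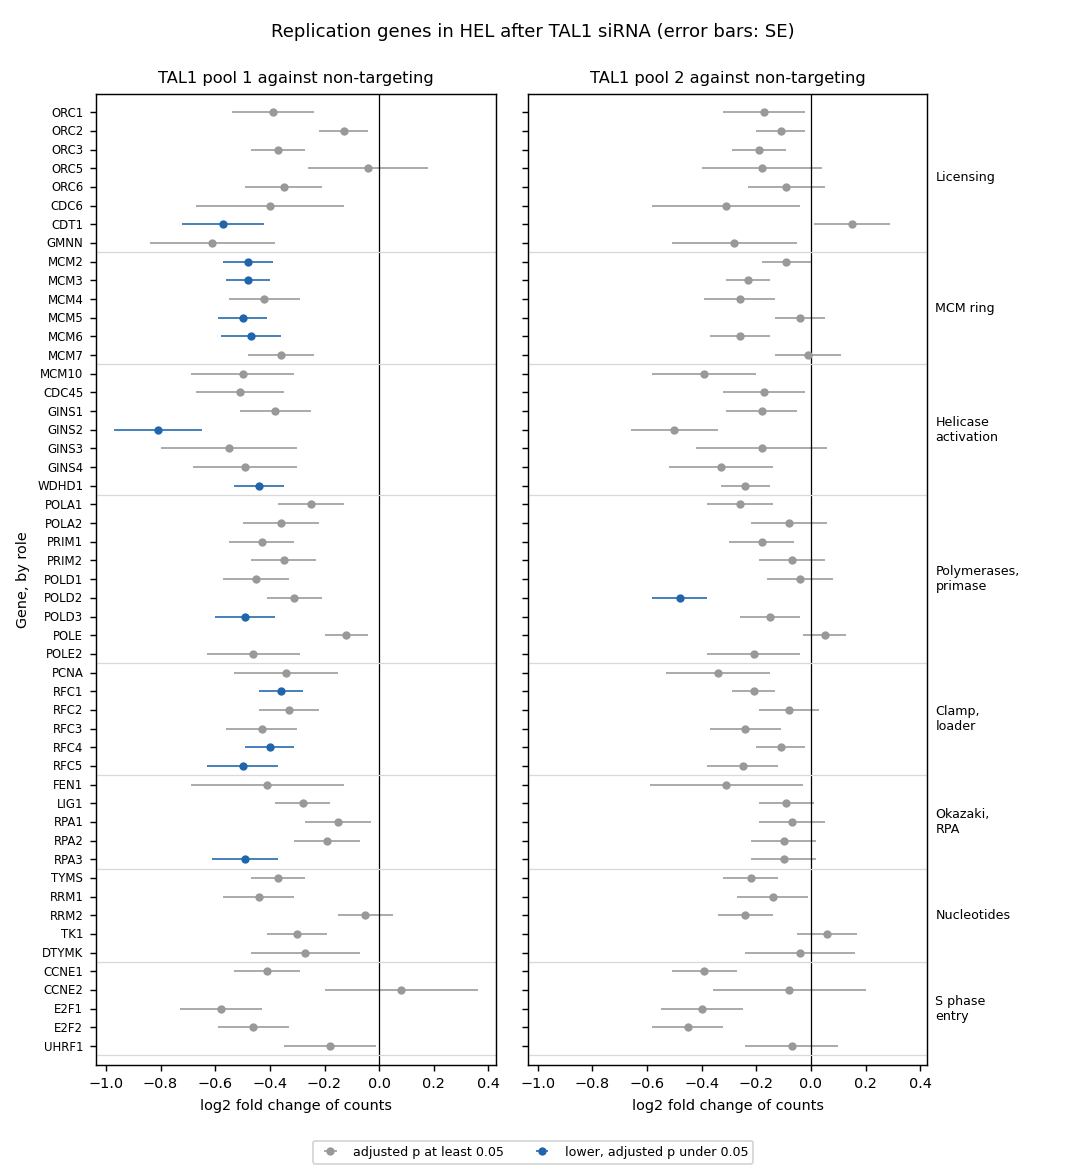
Log2 fold change with its SE of the 51 genes (rows, by role) in HEL for TAL1 pool 1 and TAL1 pool 2, each against the same 3 non-targeting libraries. Blue points passed an adjusted p under 0.05, 12 with pool 1 and 1 (POLD2) with pool 2, and nearly all points lie left of 0.

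Since both pools lowered TAL1 to a like level, they were compared directly. CDT1 was higher with pool 2 by 0.72 ± 0.15 (adjusted p = 0.0209), MCM5 by 0.46 ± 0.09 (adjusted p = 0.0171) and MCM2 by 0.39 ± 0.09 (adjusted p = 0.0333), and 0 members were lower, where 1.08% of all genes were called higher and 1.68% lower. CDT1 stood at 99.2, 134 and 150 CPM with pool 2, MCM5 at 271, 297 and 300 CPM and MCM2 at 460, 462 and 463 CPM. For all 3 genes every pool 2 library lay above every pool 1 library. All 3 calls were lost without bio rep 2 or 3 of either pool, where 0 members were called, and with bio reps 2 and 3 only the count was 23 higher and 1 lower (RRM2, -0.21 ± 0.06, adjusted p = 0.0142).

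Beyond the members, 7 of 41 other replication genes fell with pool 1, among them DTL at -0.54 ± 0.09 (adjusted p = 0.00571), ATAD5 at -0.48 ± 0.10 (adjusted p = 0.0143) and MTBP at -0.46 ± 0.10 (adjusted p = 0.0218). Over all genes, 1.65% were called lower and 2.56% higher with pool 1. Of the 26 genes of S phase entry control 0 fell and 3 rose: CCND1, cyclin D1, at 1.11 ± 0.24 (adjusted p = 0.0198), and the CDK inhibitors CDKN2C at 0.41 ± 0.09 (adjusted p = 0.0204) and CDKN1B at 0.42 ± 0.10 (adjusted p = 0.032). MYC stood at 580, 688 and 668 CPM in controls and 535, 528 and 529 CPM with pool 1 (-0.28 ± 0.08, adjusted p = 0.0724). Of 24 mitosis genes 1 fell, with a list median of -0.06, against -0.40 for the replication genes; the difference between these lists was not tested. In lists of this length, counts of 0 or 1 called lower lie near the share over all genes. The 9 erythroid-line markers summed to 5154 to 5290 CPM in controls, 2942 to 3381 with pool 1 and 3500 to 3877 with pool 2. These sums include the targeted gene TAL1, with means of 464, 178 and 190 CPM. The part of the markers in these changes was not tested.

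LDB1 knockdown in K562 gave no common direction of the size seen above, and with 1 library per group there was no test. Ratios are log2 ratios of (TPM + 1) to the control shRNA library, and a gene was counted at 1.5-fold or more in both shRNA libraries. Of the 50 members with a TPM line (CCNE2 had none), 1 was higher and 0 lower, where 27.5% of all 12345 genes were past that fold (7.75% lower and 19.7% higher). Below 0 in both libraries were 29 of 50, and above 0 in both were 13. Over all 12345 genes, 4254 were below 0 in both and 6617 above 0 in both. The member medians were -0.19 and -0.07, against 0.18 and 0.13 over all genes, so relative to the median gene the members lay lower.

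RRM2 was the member counted, at 39.8 TPM with the control shRNA and 75.8 and 83.3 TPM with the LDB1 shRNAs (mean ratio 0.98). The next highest mean ratios were those of POLD3, MCM5 and TK1, with TPM given for the control shRNA, LDB1 shRNA 1 and LDB1 shRNA 2. POLD3 stood at 7.89, 14 and 12 TPM (mean ratio 0.65), MCM5 at 79.5, 103 and 140 TPM (mean ratio 0.59) and TK1 at 243, 330 and 405 TPM (mean ratio 0.59). The lowest mean ratios were those of ORC1, at 92.3, 45.3 and 67.7 TPM (mean ratio -0.73), CDC6, at 26.2, 14.8 and 17.8 TPM (mean ratio -0.66), and POLD1, at 211, 136 and 149 TPM (mean ratio -0.57). With ratios centred on the median of all genes, CDC6 and POLD1 were also counted, both lower, and with a pseudocount of 0.1 POLD3 was counted, higher. MYC stood at 294 TPM with the control shRNA and 119 and 179 TPM with the LDB1 shRNAs. Erythroid-line markers summed to 5673 TPM with the control shRNA and to 2075 and 2576 TPM with the LDB1 shRNAs. These sums include LMO2, at 131, 44.2 and 46.2 TPM, and TAL1, at 102, 105 and 103 TPM. The part of the markers was likewise not tested.

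**Figure D5:**
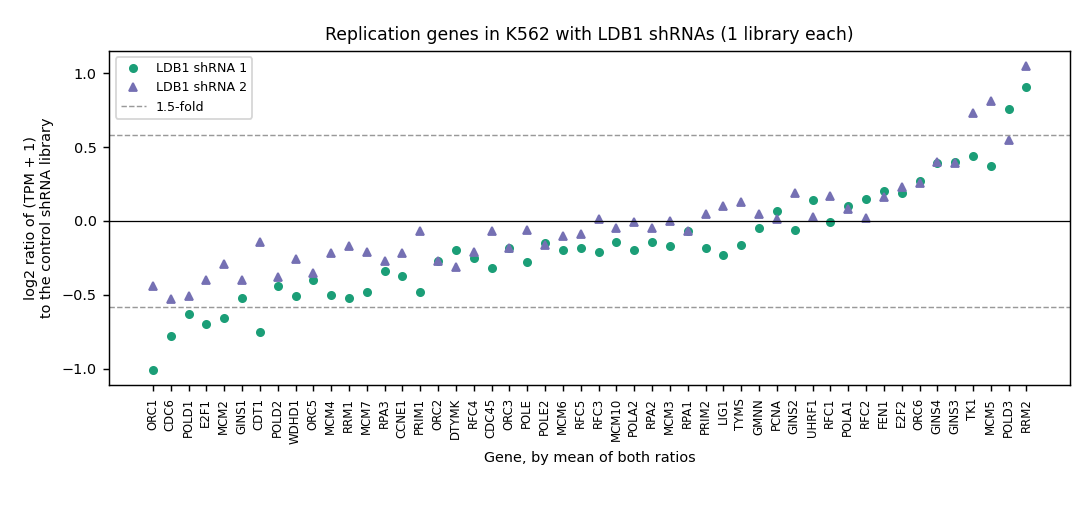
Log2 ratio of (TPM + 1) to the control shRNA library for 50 replication genes (ordered by mean ratio), with a circle for LDB1 shRNA 1 and a triangle for LDB1 shRNA 2. Dashed lines mark 1.5-fold; only RRM2 lies past a line with both shRNAs.

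Set side by side, the values of some members differed between the experiments, and those differences were not tested. MCM5 changed by -0.88 on day 4 in the degron lines and by -0.50 with TAL1 pool 1, and had a mean ratio of 0.59 with the LDB1 shRNAs. TK1 changed by -1.22, and had estimates of -0.30 with pool 1 (adjusted p = 0.164) and 0.59 with LDB1 shRNAs. Across the 51 members the day 4 change and the pool 1 change had a Pearson r of 0.45 and a Spearman rho of 0.34. Across 50 members the day 4 change and the mean LDB1 ratio had 0.30 and 0.36. These describe genes measured in separate lines and tables and are not replicates.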

How the data were processed

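RNA sequencing of polyA RNA was deposited in 3 tables, in K562 degron lines (24 libraries), HEL (9) and K562 with LDB1 shRNAs (3). The degron values are FPKM computed by the authors, the HEL values are counts deposited as raw reads per gene, and the LDB1 values are TPM computed by the authors. FastQC, STAR and featureCounts with hg19 were used per the submitters' processing notes; versions, annotation and strand setting are not given in the sources used here. Promoter sequences came from RefSeq (GRCh38.p14) and were matched by symbol only, since the files use another build.

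The FPKM were analysed as log2(FPKM + 1) for the 15348 genes that reached 1 FPKM in 2 or more libraries, with limma 3.58.1 (12 groups, trend and robust settings). HEL counts of 16688 genes kept by filterByExpr were tested with edgeR 4.0.16 (trimmed-mean scaling, quasi-likelihood test), and SEs were derived from its F statistic. Adjusted p-values are Benjamini-Hochberg over all genes tested, with a threshold of 0.05, and all tests are two-sided. The p-values measure only the spread between these libraries, which may be technical. LDB1 ratios covered the 12345 genes with a highest TPM of at least 5 and had no test. R 4.3.3, DESeq2 1.42.0, Python 3.11.15, numpy 2.4.6 and pandas 2.3.3 were used. The limma and edgeR steps were tested on simulated data.

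Whole reads could be recovered from the FPKM for 15348 of 15348 genes (100% of values within 0.02 reads of a whole number). They were tested with edgeR as an alternative added after seeing the data, which called 40 members and 9.56% of all genes lower on day 4. Bio rep numbers paired the degron-set libraries: over 66 pairs of same-numbered libraries, the correlation of deviations from group means was 0.12 to 0.66 (median 0.38), so results with the number as a block are given where they change a call.

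The members and all other gene lists were chosen with earlier results of these data known. Values in every library are given for the members with the 2 smallest p in each role on day 4 and the 1 smallest in each role with each TAL1 pool, for TAL1 and LDB1 and for the 3 largest LDB1 ratios in each direction. LMO2 is given by its ranges, and up to 4 genes each of the other replication and entry control lists by their estimated changes, with library values for MYC. A gene of a further list that this rule names is not reported here. Both TAL1 pools were compared with the same non-targeting libraries.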

Additional observations from a re-analysis of the deposited data

Results flagged for a closer look

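CDT1, MCM5 and MCM2 differed between the 2 TAL1 pools by the test of the difference itself (edgeR, quasi-likelihood). The log2 difference, pool 2 minus pool 1, was 0.72 for CDT1, 0.46 for MCM5 and 0.39 for MCM2, with each pool 2 library above each pool 1 library. With bio reps 2 and 3 only, the differences were 0.85, 0.56 and 0.46. TAL1 itself fell by 1.38 with pool 1 and by 1.31 with pool 2 on the log2 scale. The part of any difference between the pools other than their TAL1 level was not tested.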

How the results depend on the processing

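No change of direction was found among the called results under any alternative run. Of the alternative values for single named members, 551 kept their side of the threshold, 33 lost a call and 24 gained one. Leaving out 1 library at a time gave 32 to 38 members on day 4, 0 on day 1, 15 to 25 for day 4 minus day 1, 3 to 9 on day 0, 1 to 24 with pool 1, 0 to 1 with pool 2 and 0 to 6 between the pools; the cause was not tested. With the replicate block, the degron set gave 1 member on day 1 (0.625% of all genes called lower) and 40 for day 4 minus day 1 (8.17%). It gave 21 on day 0, where 4729 of all 15348 genes were called in either direction. The block changed no comparison of the members within the control lines or between the degron lines. In HEL the replicate block gave 44 with pool 1 (8.81% of all genes called lower) and 19 with pool 2 (5.18%). Between pools it gave 25, where 2431 of all 16688 genes were called. The pairing by bio rep number in HEL is only a hint from the data. Of 9 same-numbered pairs, 6 correlated above 0.1 (0.08 to 0.33), and 6 of 9 libraries correlated best with their own number. With bio reps 2 and 3 only, the HEL counts were 42 (7.31% of all genes lower), 18 (5.03%) and 24 (2591 of 16857 genes called). Without the filter on low counts they were 27 (1.29% lower), 4 (0.565%) and 6 (758 of 32771 genes called). Day 0 without the filter on low values gave 6 (2.43% lower). DESeq2 gave 23 with pool 1 (2.81% lower). Against the parental line only, day 4 minus day 1 gave 15 (1.37% of all genes called lower) and day 0 gave 4 (3.9%). Against the LMO2 control line only, they gave 12 (1.05%) and 3 (4.54%). Degron line 1 alone gave 23 on day 4 (3.3% of all genes called lower), 2 for day 4 minus day 1 (0.384%) and 1 on day 0 (2.54%). All 24 libraries stayed in that fit, and degron line 2 was left out of the comparison. The LDB1 count was 2 with a pseudocount of 0.1 and 3 with centred ratios. Read depth was ample for these genes in the degron set and HEL, and the number of libraries (2 or 3 per group, 1 in the LDB1 set) limits the precision.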
